A study of Homo sapiens with 2 samples.

Results

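NAMPT, nicotinamide phosphoribosyltransferase, was followed through RNA libraries of 95D cells, an established line of human lung cancer, as 1 name among the 9253 names with a value. Every transcript row listed under the name NAMPT with a number was taken, which gave 11 of the 18663 rows with a value. The table listed 14 NAMPT rows, and the other 3 carried no number. NAMPT was chosen by its measured value, which is high in the library of cells without glucose, so its levels and ranks are a description and no test was made on them. The 95D cells, labelled as WT, were grown for 24 h in complete medium and then kept for 48 h in DMEM without glucose or in DMEM without glutamine, each with 10% dialyzed serum. There was 1 library per condition and no library of fed cells, so differences between conditions could not be set against a spread between cultures and no p-value is given. The libraries are called glucose-free and glutamine-free below, after the sample that each file belongs to. The description of the glutamine sample names the glucose column of the whole-series table, and the sample recorded for each file was followed. The title and design given for the study speak of an RNA immunoprecipitation with an antibody to ALKBH5, an m6A demethylase, against an input, whereas both labels describe total RNA depleted of ribosomal RNA. Which kind of library each is cannot be told from the labels, and enrichment over input is not analysed here.

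NAMPT turns nicotinamide, which NAD-consuming enzymes release, into nicotinamide mononucleotide, the slow step of NAD salvage. The NMNAT enzymes then complete NAD, and sirtuins, PARP enzymes and NAD glycohydrolases consume it again. NAD carries electrons in glycolysis and in mitochondrial oxidation of glucose and glutamine carbon, and many tumours express NAMPT at high levels.

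RefSeq (assembly GRCh38.p14, the same genome build as the hg38 named in the submitters' processing notes) places NAMPT, a protein-coding gene, on the minus strand of chr7:106248298-106285888, a span of 37591 bases, with 3 RefSeq transcripts. The deposited table held more NAMPT rows than that, in a name column headed as lncRNA genes, and gave no transcript identifiers. Whether a row is the coding messenger RNA, a retained-intron transcript or an antisense one cannot be told. The last case matters here because NAMPT-AS1, an antisense long non-coding RNA at chr7:106285246-106286326, overlaps the NAMPT span by 643 bases, and the sources used here do not say whether strand was used in counting. RefSeq also lists 3 NAMPT pseudogenes, whose reads could be shared with the gene. The start region of NAMPT (chr7:106284934-106285233, minus strand, 250 bases before to 50 bases after a transcript start at 106284983) is printed to show how closely the antisense gene starts, 263 bases away on the other strand. The NAMPT span runs on to 106285888, so the start at 106284983 is not its outermost one. The 643 overlapping bases lie upstream of the printed window and outside it. Capitals mark the 238 bases that the same window of NAMPT-AS1 also covers.

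NAMPT: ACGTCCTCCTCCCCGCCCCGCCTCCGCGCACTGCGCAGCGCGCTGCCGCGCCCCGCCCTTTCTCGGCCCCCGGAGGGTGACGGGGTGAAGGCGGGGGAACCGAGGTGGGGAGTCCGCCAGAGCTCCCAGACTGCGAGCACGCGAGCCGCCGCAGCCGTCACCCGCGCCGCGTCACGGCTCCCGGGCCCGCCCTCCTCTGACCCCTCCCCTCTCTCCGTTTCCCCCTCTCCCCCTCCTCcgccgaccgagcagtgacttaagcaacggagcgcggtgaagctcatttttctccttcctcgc

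The window was 73.0% G and C, against a median of 58.7% over 35116 RefSeq windows of the same length. Searched on both strands, it held 3 matches to the GC box GGGCGG, a motif present in 45% of the windows. It held 0 matches to the E-box CACGTG (7.26% of windows), to the TATA box TATAAA (11.5%) and to the amino acid response element TGATGNAAT (0.991%). These are letter matches and not binding sites. No measurement of binding at this window was used.

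The libraries differed greatly in recovered reads, which touches each value that follows. Low deposited values climbed in equal steps, as whole reads multiplied by 1 factor per library would. Rows with a value were 20.3% of the rows listed. Reads recovered from these steps over those rows came to 42827 in the glucose-free and 1442570 in the glutamine-free library. The second total is 33.7 times the first. Totals and shares of reads here refer to those rows alone and need not follow the depth of sequencing. Rows above 0 made up 2.54% of the rows with a value in the glucose-free library and 99.5% in the glutamine-free library. Names above 0 in the glucose-free library were mostly not at its lowest level. The name at rank 200 of 393 stood at 101, and the lowest at 1.29. Why the other names were listed at 0 was not tested. Of 8 markers of lung cancer epithelial cells, 5 had a value, the keratins KRT8, KRT18, KRT19 and KRT7 and the mesenchymal filament VIM, which stood at 75.9 in the glutamine-free library. All 5 were above 0 there, while KRT8 was the 1 above 0 in the glucose-free library, at 199.8 against 143. EPCAM, CDH1 and NKX2-1 had no value. Of 10 markers of leukocytes, endothelium, fibroblasts, red cells and liver, 2 had a value, COL3A1 at 2.35 and ALB at 1.56 in the glutamine-free library and both at 0 in the other.

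Summed over its rows, NAMPT stood at 735 in the glucose-free library and at 1364 in the glutamine-free library, in deposited units that are not divided by transcript length. Behind these values were 581 and 1725 recovered reads. NAMPT took 1.36% of the reads of the glucose-free library (95% Wilson interval 1.25 to 1.47%) and 0.120% of those of the glutamine-free library (0.114 to 0.125%). The value was thus larger in the glutamine-free library and the share larger in the glucose-free one. With XLOC_220679, the unnamed locus that led both libraries, left out of the total, the shares were 1.56% (1.44 to 1.69%) and 0.195% (0.186 to 0.205%). All intervals here account for counting error alone. They treat each recovered read as independent, although PCR copies were not separated by molecular identifiers, so they may be too narrow even for that.

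By summed value NAMPT ranked 5 of the 393 names above 0 in the glucose-free library and 28 of the 9211 above 0 in the glutamine-free library. Ranks compare values that were not divided by length, so a long transcript or a name with many rows ranks higher. In the glucose-free library the 3 names directly above were MALAT1, a nuclear long non-coding RNA, at 1308, SNHG14, a small nucleolar RNA host gene, at 1134 and EEF1A1, a translation elongation factor, at 951. Directly below stood UBQLN1, a ubiquitin-binding shuttle protein, at 584, NEAT1, the scaffold RNA of paraspeckles, at 506 and CSNK2A2, a catalytic subunit of casein kinase 2, at 475. As a description of this library, EEF1A1 had 1.29 times the NAMPT reads (95% exact binomial interval 1.16 to 1.44), and UBQLN1 had 0.795 times (0.702 to 0.900).

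In the glutamine-free library the names around NAMPT lay close to it in value. SPG7, a mitochondrial protease, stood at 1385 and PVT1, a long non-coding RNA, at 1369.5. Below NAMPT came BSG, a partner of lactate transporters, at 1311, LINC-PINT at 1309 and PKD1, polycystin, at 1265. The counting intervals of the read ratio to NAMPT included equality for SPG7, PVT1, BSG and LINC-PINT, so their order is not resolved, and PKD1 had 0.928 times the NAMPT reads (0.866 to 0.993). PVT1 was above 0 in the glucose-free library, at 5.08, and SPG7, BSG, LINC-PINT and PKD1 were listed at 0 there.

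**Figure D1:**
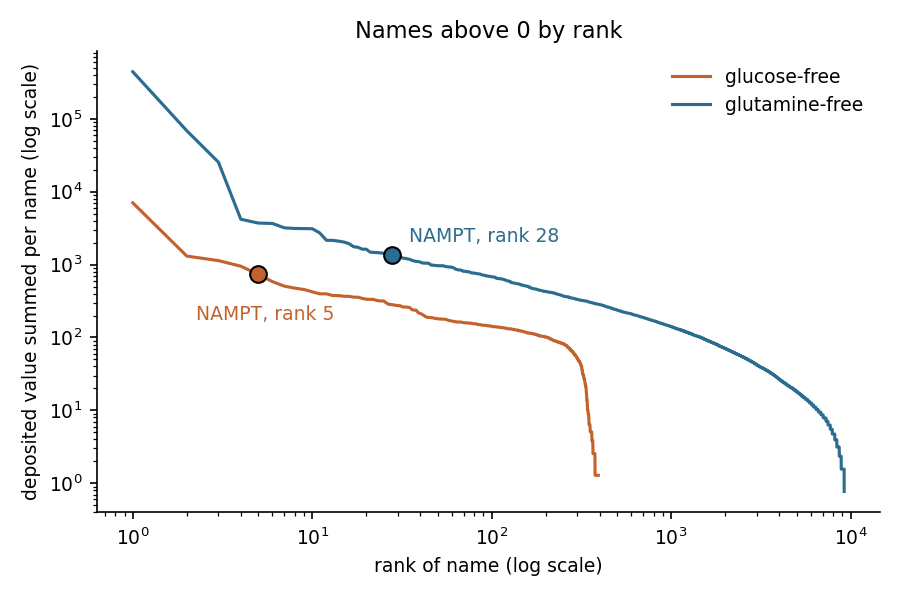
Deposited value summed per name (log axis) against the rank of the name (log axis), for names above 0 in the glucose-free (orange) and glutamine-free (blue) library; circles mark NAMPT. NAMPT sits at rank 5 with 735 on a curve that ends after 393 names, and at rank 28 with 1364 on one that ends after 9211.

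NAMPT was among the 8 names that lay within the first 28 of both libraries. XLOC_220679, MALAT1, SNHG14 and EEF1A1 lay above it in both. HSPA5, the main endoplasmic reticulum chaperone, RPLP0, a ribosomal stalk protein, and NEAT1 lay above it in the glutamine-free library and below it in the other. Names with a similar level in the glutamine-free library were mostly at 0 in the other: of 89 names between 682 and 2729 there, NAMPT included, 35 were above 0 in the glucose-free library, or 39.3%. Over all names the share above 0 in the glucose-free library was 4.25%. By its value in the glucose-free library NAMPT was number 2 of those 89.

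The NAMPT signal was divided differently over its transcript rows in the libraries. Rows are numbered 1 to 11 in file order among those with a value. In the glucose-free library 3 of the 11 rows were above 0, row 2 at 480, row 3 at 235 and row 5 at 19.0. In the glutamine-free library 10 of the 11 were above 0, and row 3 was the 1 listed at 0. Its highest rows were row 5 at 289.5, row 2 at 244, row 9 at 239 and row 8 at 228. Row 1 stood at 168, row 4 at 121 and row 6 at 60.1 there. The smallest rows were row 11 at 7.10, row 7 at 3.94 and row 10 at 3.15, each resting on fewer than 10 reads (9, 5 and 4). The glucose-free signal was thus concentrated in a pair of rows, and the glutamine-free signal was spread over 7 rows between 60.1 and 289.5.

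**Figure D2:**
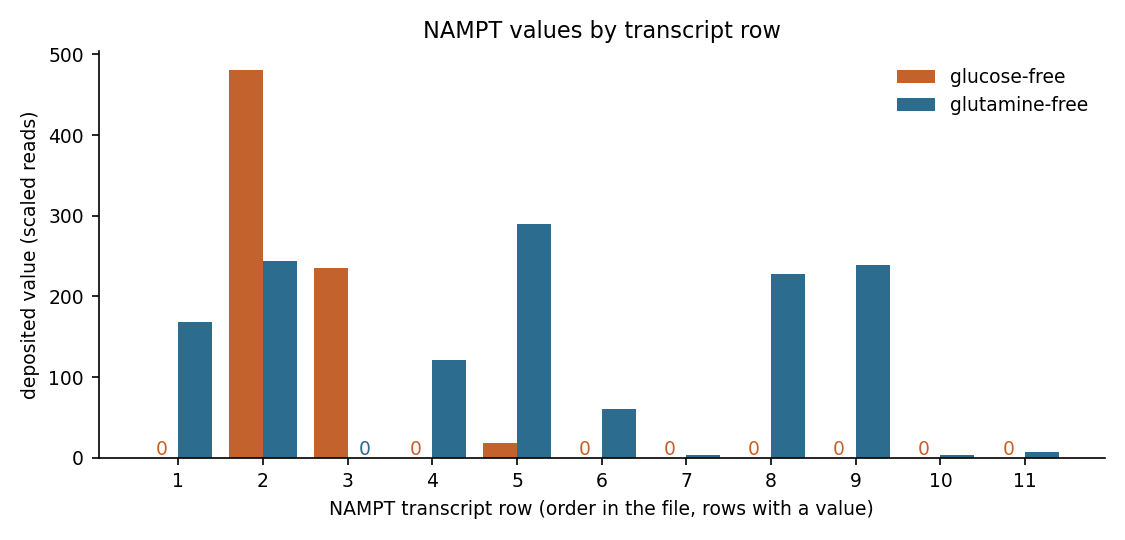
Deposited value (linear axis, scaled reads) of each of the 11 NAMPT transcript rows with a value, in the glucose-free (orange) and glutamine-free (blue) library, 1 library each; a printed 0 marks a row listed at 0. Rows 2 and 3 hold nearly all of the glucose-free signal, while 10 rows are above 0 in the glutamine-free library.

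As shares of the NAMPT reads, which no scaling between libraries alters, row 2 held 65.4% (95% Wilson interval 61.4 to 69.2%) in the glucose-free and 17.9% (16.2 to 19.8%) in the glutamine-free library. Row 5 held 2.58% (1.57 to 4.22%) and 21.2% (19.4 to 23.2%). Row 3 held 32.0% (28.3 to 35.9%) in the glucose-free library and was listed at 0 in the other. The ratio of row 2 to row 5 was 25.3 (380 to 15 reads, exact binomial interval 15.2 to 45.7) in the glucose-free library and 0.844 (309 to 366 reads, 0.723 to 0.985) in the glutamine-free library. These are the largest rows of the glucose-free and of the glutamine-free library, taken after their values were seen, so their opposite order follows from the choice and the ratios are a description.

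The 8 rows listed at 0 in the glucose-free library alone held 60.9% of the NAMPT reads of the glutamine-free library (58.5 to 63.1%). At that proportion they would have held 354 of the 581 reads found in the glucose-free library. Row 9 alone would have held 102, row 8 97.0 and row 1 71.7, but rows 11, 7 and 10 only 3.03, 1.68 and 1.35. These rows were picked for being at 0, so the figures describe the size of the gap and test nothing about its cause. A listed 0 in this library need not mean absence, since ACTB and GAPDH, which nearly all cells express, were also listed at 0, and no upper limit is given for it.

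Such a change of the leading row was common. Of the 276 names above 0 in both libraries with at least 2 rows, the largest row differed between the libraries for 169, or 61.2%, NAMPT among them. Rows above 0 in the glucose-free library alone numbered 99 in the whole table, and NAMPT row 3 was number 4 of them by value. It followed a row each of ACSL4, an activator of polyunsaturated fatty acids, at 397, POLR3A, the largest RNA polymerase III subunit, at 321 and SPP1, osteopontin, at 274. Of the names with such a row, 47 were above 0 in the glutamine-free library through other rows, as NAMPT was.

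In all, 18 names had at least 3 rows above 0 in the glucose-free library, of the 393 names above 0 there. EEF1A1 with 3 of 6 rows, RPLP0 with 6 of 7 and NPM1 with 3 of 10 were among them. Among the 73 names with 11 or more rows, 22 were above 0 in the glucose-free library, 16 through 1 row, 3 through 2 rows and 3 through 3 or more. The last were NAMPT, SNHG14 with 3 of 29 rows and GAS5, another host of small nucleolar RNAs, with 4 of 53 rows. The largest row held 65.4% of the NAMPT value, 59.9% of that of SNHG14 and 60.7% of that of GAS5 in the glucose-free library. In the glutamine-free library it held 21.2%, 29.2% and 29.4%.

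Between the libraries NAMPT gave a log2 ratio of 0.89 as deposited, glutamine-free over glucose-free on the log2(value + 1) scale (95% counting interval 0.76 to 1.03). This is below the 2-fold mark, which 97.4% of all names passed upward and 1.42% downward, the former largely because they were listed at 0 in the glucose-free library. Of the 351 names seen in both libraries, that is above 0 in each, 42.2% passed it upward and 25.4% downward. With each library rescaled to a sum of 1000000 the NAMPT log2 ratio was -3.50, and then 5.98% of the 351 passed upward and 86.9% downward. The sign of the NAMPT difference is thus set by the scaling, and no direction is given.

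What no scaling moves is the place of NAMPT among the 351 names above 0 in both libraries. Without a pseudocount its log2 ratio was 0.89, with 194 names below it and 156 above. The median of the 351 was 0.61 and their middle 50% ran from -1.09 to 1.99. Summed over its rows, NAMPT therefore lay close to the middle, in contrast to MALAT1 and NEAT1 at 5.71 and 5.65. The choice of NAMPT rows did move the NAMPT ratio, but its place was not worked out again with the other names treated alike. On log2(value + 1) the NAMPT ratio was 0.10 over the rows above 0 in both libraries and 2.08 without the largest row of each library. Against MALAT1, NAMPT had 0.561 times the reads in the glucose-free library (95% exact binomial interval 0.506 to 0.622) and 0.0199 times in the glutamine-free library (0.0190 to 0.0209). Against NEAT1 the ratios were 1.45 (1.28 to 1.65) and 0.0536 (0.0511 to 0.0563). NAMPT was above NEAT1 in the first library and far below it in the second.

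**Figure D3:**
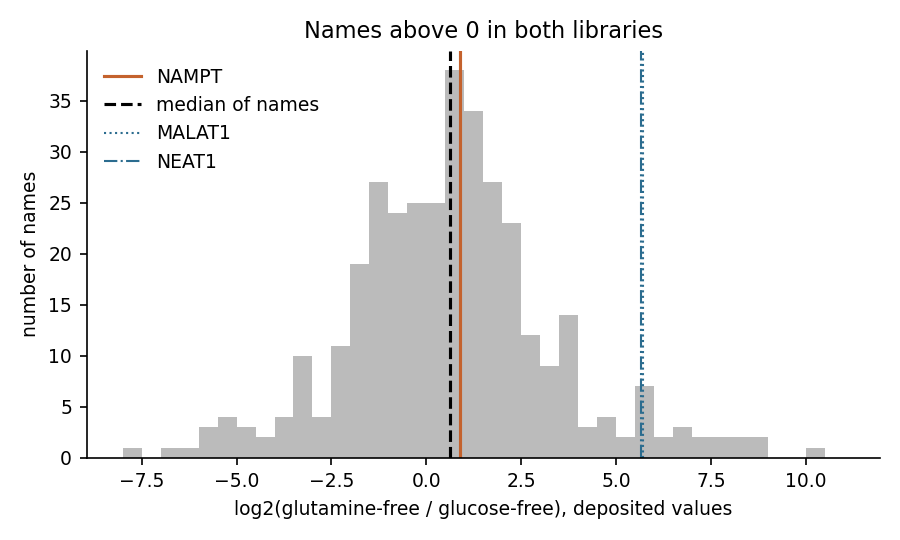
Number of names (bars, bins of 0.5) by log2 of the deposited value in the glutamine-free over the glucose-free library, for the 351 names above 0 in both. NAMPT (orange line, 0.89) lies near the median (dashed, 0.61), while MALAT1 (dotted, 5.71) and NEAT1 (dash-dotted, 5.65) lie in the upper tail; rescaling would move all names together.

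The 6 gene symbols nearest to NAMPT by Euclidean distance in log2(value + 1) over the 2 libraries were EEF1A1, NORAD, CSNK2A2, FN1, RPLP0 and NPM1, at distances from 0.72 to 1.28. With 2 libraries as the only points, this likeness is no more than a similar pair of values. The names were picked for that likeness, which favours similar ratios to NAMPT in both libraries, so the ratios below are a description. NORAD, a long non-coding RNA that binds Pumilio proteins, stood at 455 in the glucose-free and 797 in the glutamine-free library. NPM1, nucleophosmin, stood at 397 and 719.7, and CSNK2A2 at 475 and 725. The ratio of NAMPT reads to NORAD reads was 1.61 (1.41 to 1.85) and 1.71 (1.58 to 1.85), and that to NPM1 was 1.85 (1.61 to 2.13) and 1.90 (1.75 to 2.06). For CSNK2A2 the ratios were 1.55 (1.35 to 1.76) and 1.88 (1.74 to 2.04). The intervals of the libraries overlapped for these 3 names. They did not overlap for EEF1A1, at 0.773 (0.692 to 0.862) and 0.650 (0.611 to 0.691), for FN1, fibronectin, at 2.14 (1.85 to 2.48) and 1.42 (1.32 to 1.53), or for RPLP0, at 2.31 (1.99 to 2.69) and 0.839 (0.787 to 0.895).

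The other genes of NAD synthesis and use were 68 on 6 lists. Of these, 25 had a value, all 25 were above 0 in the glutamine-free library, as 99.5% of all names were, and 0 were above 0 in the glucose-free library, against 4.25% of all names. Lacking a value was the usual case in the table, where 31.7% of the 29234 names listed had one. Of the 69 list genes, NAMPT included, 47 were listed and 26 had a value. A gene said below to carry no value may be unlisted or listed without a number. Those 25 stood between 2.35 and 324 in the glutamine-free library, with a median of 39.5 against 20.5 over all names. Of the 8542 names in that range of values, 2.88% were above 0 in the glucose-free library, and a count of 0 among 25 is near that share. The range is wide and not matched to the level of the 25, of which 17 stood at or above the median of all names. NAMPT was the 1 name of the 6 lists seen in both libraries. Its summed value in the glutamine-free library was 4.21 times that of the next name, SIRT7, which had 12 rows with a value.

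Among enzymes of salvage and precursor entry, 7 of 14 had a value. After NAMPT came NADSYN1, which makes NAD from its deamidated form, at 281 in the glutamine-free library, PNP, which splits nicotinamide riboside among other nucleosides, at 122 and NAPRT, the enzyme that starts NAD synthesis from nicotinic acid, at 28.4. ENPP1, an ectoenzyme, stood at 16.6, the nucleoside transporter SLC29A1 at 14.2 and SLC12A8, a proposed carrier of nicotinamide mononucleotide, at 5.50. NMNAT1, NMNAT2 and NMNAT3, which take the NAMPT product to NAD, carried no value, nor did the nicotinamide riboside kinases NMRK1 and NMRK2. In the pathway from tryptophan, 2 of 12 genes had a value, KYNU, kynureninase, at 28.5 and ACMSD, which diverts carbon away from NAD, at 2.35. IDO1, TDO2 and QPRT carried no value.

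Of 14 genes that phosphorylate NAD or exchange it and its electrons with mitochondria, 6 had a value. GOT2 at 129.7, MDH1 at 45.0 and SLC25A12 at 39.5 belong to the malate-aspartate shuttle, which moves NADH electrons into mitochondria. MDH2, the mitochondrial malate dehydrogenase of the same shuttle, stood at 35.6 and AIFM1 at 22.9. NADK, which makes NADP from NAD, stood at 111. All of these values are from the glutamine-free library, and all 6 names were listed at 0 in the other.

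The 11 NAD consumers with a value were at 0 in the glucose-free library, where 2.88% of names in the range given above were above 0. Of 7 sirtuins, 3 had a value, SIRT7, the nucleolar deacylase, at 324, SIRT6, a chromatin deacylase, at 56.1 and SIRT5, the mitochondrial desuccinylase, at 12.6. Of 17 PARP family genes, 8 had a value. PARP1, the main DNA damage-activated poly(ADP-ribose) polymerase, stood at 301, PARP4 at 73.6, PARP10 at 67.2 and PARP14 at 61.7. The other 4 lay between 3.15 and 58.5. None of the 5 NAD glycohydrolases and nicotinamide methylation genes, CD38, BST1, SARM1, NNMT and AOX1, had a value. SIRT7, PARP1 and NADSYN1, the 3 highest of these names apart from NAMPT, were listed at 0 in the glucose-free library, where 13.0% of the 92 names between 281 and 324 in the glutamine-free library were above 0.

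**Figure D4:**
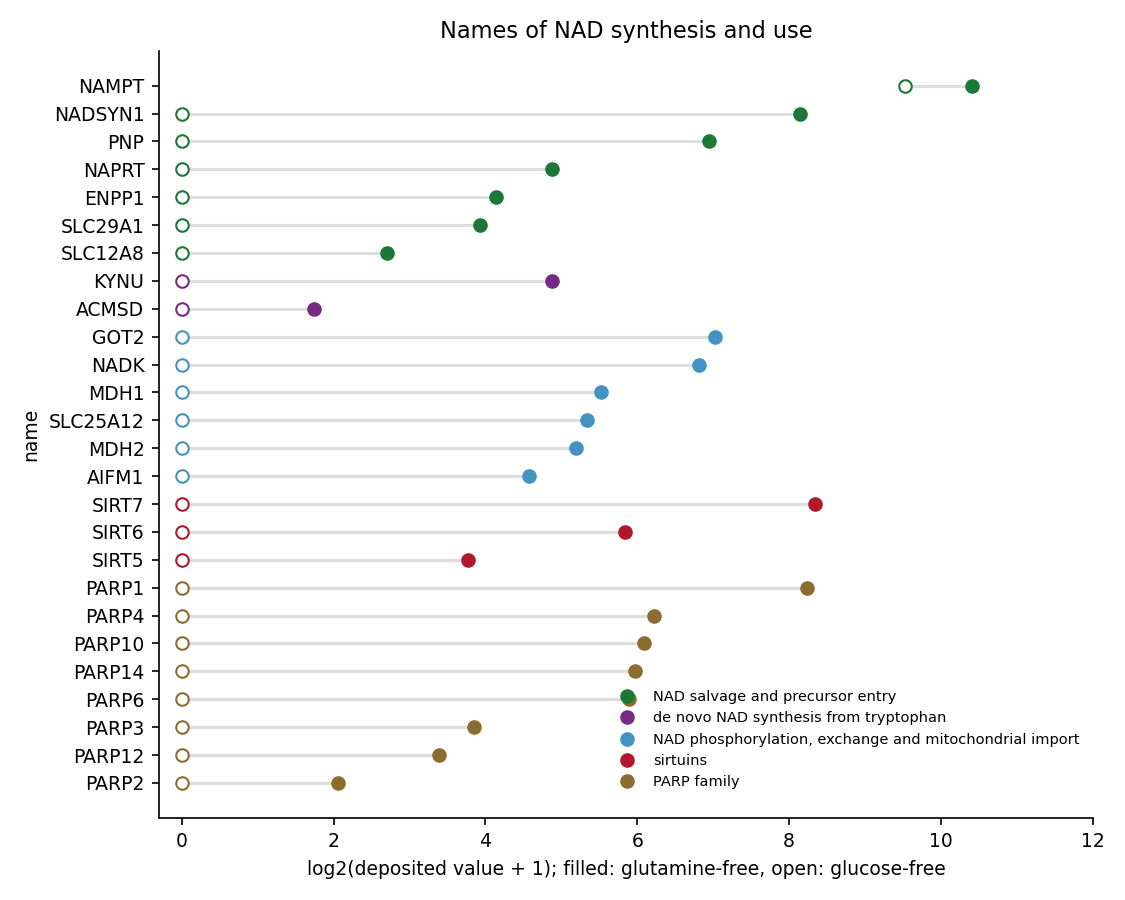
log2(deposited value + 1) of the 26 names of NAD synthesis and use with a value, by list, in the glutamine-free (filled) and glucose-free (open) library, joined by a line. NAMPT is above 0 in both libraries; the other 25 lie at 0 in the glucose-free library and between 2.35 and 324 before the log in the glutamine-free one.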

How the data were processed

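RNA was measured in 2 libraries of 95D cells. The deposited values are scaled reads of another, unstated unit per transcript row. Per the submitters' processing notes, HISAT2 2.0.5, StringTie and build hg38 were used, with no role or settings; how reads were counted, on which annotation and strand, and how they were scaled is not given in the sources used here. Values under 1e-09 were set to 0 and rows marked as missing were left out. Reads were recovered by subtracting a fitted offset and dividing by the step between low values (1.264 in the glucose-free, 0.791 in the glutamine-free library). All 472 and 18536 values of at most 1000 reads then lay within 0.1 of a whole number (100%), and larger ones were rounded. No count test was run. Values were summed per name, and all 9253 names passed a minimum of 1 in either library. Of these, 6861 matched RefSeq symbols. A name counts as 2-fold apart on log2(value + 1). Shares of reads have 95% Wilson intervals, and ratios of reads exact binomial ones. Named were NAMPT, the 3 names above and below it in each library, the 6 nearest symbols, members of the NAD lists above 0 in the glucose-free library, the 4 highest in the other library, names needed for counts of 5 or fewer, and MALAT1 and NEAT1; HSPA5, GAS5, ACSL4, POLR3A, SPP1 and the lower list members were chosen after their values were seen. A neighbour in rank that this rule names is not reported here. NAMPT and the lists were chosen with earlier results of these data known. Calculations used Python 3.11.15, pandas 2.3.3, NumPy 2.4.6 and SciPy 1.17.1 and were tested on simulated data. Both simulated libraries were drawn at the read level of the glutamine-free library, so the gap in reads between the real ones was not simulated. Alternatives were other scalings, pseudocounts, minimums, and rows in place of sums.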

Additional observations from a re-analysis of the deposited data

How the results depend on the processing

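The NAMPT log2 ratio changed sign with the scaling, from 0.89 as deposited to -3.50 with each library rescaled to 1000000 and to -3.00 when rescaled without the most abundant name. Centred on the median of names above 0 in both libraries it was 0.29. Over the rows above 0 in both it was 0.10, and without the largest row of each library 2.08. Taking the largest row in place of the sum gave 480 in the glucose-free and 289.5 in the glutamine-free library, and this row ranked 212 among all rows in the latter. By the mean over rows NAMPT ranked 101 in the glucose-free and 247 in the glutamine-free library, since the mean divides by the number of rows. Names at least 2-fold higher in the glutamine-free library numbered 148 among names at 1 or more in both libraries. Names at least 2-fold higher in the glucose-free library numbered 347 after rescaling and 85 among names at 1 or more in both. The other 15 settings kept their value within 1.5 times or within counting error. The glucose-free values rest on 42827 recovered reads, and with 1 library per condition the spread between cultures is not known.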
